A study of Mus musculus with 24 samples.

Results

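The measure described here is the effect of halofuginone on where each mRNA sits in a polysome gradient of NIH/3T3 cells, a fibroblast line derived from mouse embryos. It is a difference of differences on the log2 scale: heavy polysomes minus ribosome-free fractions in halofuginone-treated cells, minus the same difference in vehicle-treated cells. A value above 0 means that the heavy-to-free ratio of a gene was higher with halofuginone, and a value below 0 that it was lower. Of the 24 libraries of the study, the 12 from these pools were used, 3 in each of 4 groups. The groups are cells given halofuginone for 24 h, heavy pool, cells given PBS as vehicle, heavy pool, and the ribosome-free pools of the same 2 treatments. The heavy pool holds mRNAs with more than 5 ribosomes, and the ribosome-free pool holds free mRNA with the small and large ribosomal subunits. The labels give 100 nM halofuginone for all treated samples, whereas the headers of the untagged halofuginone columns say 50 nM, and which of them holds for that set is not settled here. Total RNA and the light polysomes are not part of the measure.

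Halofuginone blocks the proline site of Eprs, the synthetase that charges tRNAs with glutamate and with proline. Uncharged tRNA activates the kinase Gcn2, which phosphorylates the initiation factor eIF2, lowers general initiation and favours translation of a few mRNAs with upstream reading frames, of which Atf4 is the best known. Atf4 is a transcription factor that switches on amino acid transporters, tRNA synthetases and stress regulators. In fibroblasts the drug is known for lowering type I collagen, a protein rich in proline.

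The libraries of a set share a column tag, and each set holds 1 library of every group. The untagged set pooled gradient fractions 1 to 2 as ribosome-free and 7 to 11 as heavy, whereas tags 2 and 4 pooled fractions 1 to 5 and 14 to 21. The tag, the dose in the headers and the choice of fractions therefore cannot be told apart for the untagged set. Depth ran from 10.3 to 22.5 megacounts (counts assigned to genes) per library. Mitochondrially encoded RNA took 0.354% to 0.746% of counts in the halofuginone heavy pools and 0.276% to 0.394% in the vehicle heavy pools, and 11.1% to 32.9% in the halofuginone free pools and 8.69% to 34.9% in the vehicle free pools. All 7 fibroblast markers examined averaged at least 5 CPM (counts per megacount of scaled library size) in every group. Their summed level was 3118 to 7450 CPM in halofuginone heavy, 4429 to 9736 CPM in vehicle heavy, 3322 to 5781 CPM in halofuginone free and 4055 to 6461 CPM in vehicle free libraries. Of the epithelial and leukocyte markers, 0 of 5 and 0 of 6 reached 5 CPM in any group. Of 5 endothelial markers 1 did so, in the halofuginone heavy pool alone, and of 5 adipocyte markers 1 or 2 did in each group.

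Coding sequences are shown for 5 genes described below, chosen for their values of the measure and for their proline content. The stretches of 30 codons that hold the most proline codons are printed for Col1a1 and Col3a1, chains of the fibrillar collagens I and III, and for Lss, the cholesterol synthesis enzyme lanosterol synthase, all with values below 0. For 2 short mRNAs with values above 0, Uqcrq of respiratory complex III and the G protein gamma subunit gene Gng5, the whole coding sequence is printed. Capitals mark proline codons. The sequences come from the GENCODE M21 transcripts of GRCm38, 5′ to 3′ on the coding strand.
Col1a1, codons 114 to 143: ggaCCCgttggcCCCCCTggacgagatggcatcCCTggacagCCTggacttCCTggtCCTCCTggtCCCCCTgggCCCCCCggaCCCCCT
Col3a1, codons 172 to 201: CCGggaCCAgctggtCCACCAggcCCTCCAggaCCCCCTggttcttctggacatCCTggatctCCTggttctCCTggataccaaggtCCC
Lss, codons 211 to 240: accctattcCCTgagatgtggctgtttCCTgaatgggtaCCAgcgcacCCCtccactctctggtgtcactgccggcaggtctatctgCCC
Uqcrq, 82 codons and the stop: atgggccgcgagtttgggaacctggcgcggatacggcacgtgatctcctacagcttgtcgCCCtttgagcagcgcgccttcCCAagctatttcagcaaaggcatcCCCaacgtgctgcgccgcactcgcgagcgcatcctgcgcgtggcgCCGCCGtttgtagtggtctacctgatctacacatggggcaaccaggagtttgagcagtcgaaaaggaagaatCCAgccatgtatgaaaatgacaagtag
Gng5, 68 codons and the stop: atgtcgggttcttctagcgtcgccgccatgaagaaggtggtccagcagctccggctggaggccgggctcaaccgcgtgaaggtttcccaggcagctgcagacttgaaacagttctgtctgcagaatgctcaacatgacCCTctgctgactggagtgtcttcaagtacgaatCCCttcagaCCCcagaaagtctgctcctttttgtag
The Col1a1 window holds 14 proline codons, the Col3a1 window 12 and the Lss window 5. Over the whole protein, proline makes up 18.995% of Col1a1 and 19.5% of Col3a1, against 4.91% of Lss, 7.32% of Uqcrq and 4.41% of Gng5. The median over the 11342 tested genes with a protein was 5.49%.

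Across all genes, halofuginone lowered or raised no gene's heavy-to-free balance past the threshold. The quasi-likelihood test of edgeR, with tags as blocks within each pool, called 0 of 13053 genes higher (0%) and 0 lower (0%) at a Benjamini-Hochberg adjusted p under 0.05. At an unadjusted p under 0.05 there were 395 genes above 0 (3.03%) and 368 below 0 (2.82%). DESeq2 called 1 gene, Avil, with 290 genes above 0 and 384 below 0 at an unadjusted p under 0.05. The smallest adjusted p in edgeR was 0.177, for Avil, and the next, 0.772, was shared by 2235 genes, so it ranks none of them. Without the tag blocks edgeR also called 0 genes, with 21 above 0 and 32 below 0 at an unadjusted p under 0.05. With no filter on low counts edgeR called 163 of 24908 genes (27 higher, 136 lower), among them 20 of the 70 genes named here, Col1a1, Lss and Lox included. Many of the 70 were named for a small p of this same measure, so that count gives them no added support. The values of single genes below come from the filtered test, in which none passed, unless another tool or setting is named.

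The 3 sets did not place genes in the same order. Spearman's correlation of the per-set values across genes was 0.14 between untagged and tag 2, -0.05 between untagged and tag 4 and 0.05 between tags 2 and 4, as a description over 13053 genes that share their libraries. The values were widest in tag 4, with an SD across genes of 0.98 against 0.54 in tag 2 and 0.46 in the untagged set. Genes above 0 in all 3 sets made up 16.1% of those tested, and genes below 0 in all 3 made up 11.6%. The median of all genes was 0.05 in the fit, with 55.3% of genes above 0, and -0.06 in the fit without tag 4. That fit called 1 gene, Avil, higher, and held 267 genes above 0 and 588 below 0 at an unadjusted p under 0.05.

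The measure joins 2 effects of halofuginone taken from the same fit. In the heavy pool edgeR called 67 genes higher (0.513%) and 107 lower (0.82%) at an adjusted p under 0.05. In the ribosome-free pool it called 0 genes in either direction, with 273 higher (2.09%) and 235 lower (1.8%) at an unadjusted p under 0.05. The plot of heavy against ribosome-free effects shows where the main groups lie.

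**Figure D1:**
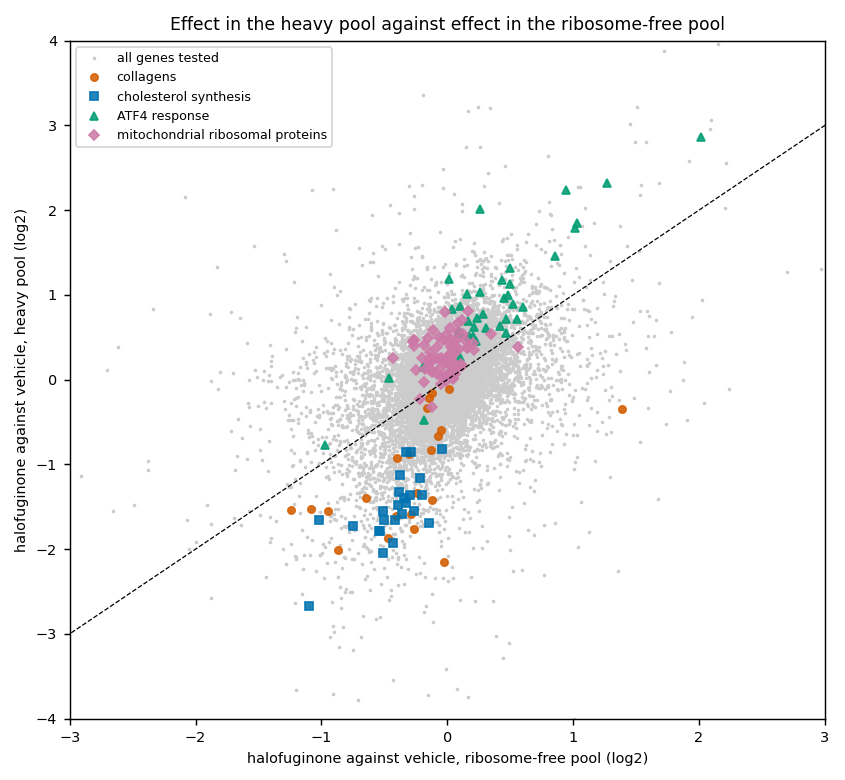
Effect of halofuginone against vehicle (log2) in the heavy pool, vertical, and in the ribosome-free pool, horizontal, for each of 13053 genes in grey and for 4 gene lists in colour; on the dashed line both effects are equal and the measure is 0. Collagens and cholesterol synthesis genes lie below the line, most ATF4 response and mitochondrial ribosomal protein genes above it, and 31 genes lie outside the plotted range.

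Collagen mRNAs held lower heavy-to-free ratios with halofuginone than with vehicle. All 22 tested collagen chains of 24 listed had a value below 0 in the fit, 14 of them in each of the 3 sets, and 11 at an unadjusted p under 0.05. Of all genes 11.6% were below 0 in the 3 sets and 2.82% were below 0 at that p in edgeR. On the other side, 55.3% were above 0 in the fit, 16.1% in the 3 sets and 3.03% at that p. These shares stand beside the counts of every list below. The median was -0.65, with -0.47 in the untagged set, -0.54 in tag 2, -1.10 in tag 4 and -0.63 in the fit without tag 4. None passed the adjusted threshold. In the heavy pool alone 8 of the 22 were called lower (Col1a1, Col3a1, Col6a1, Col6a2, Col6a3, Col11a1, Col12a1 and Col16a1), beside 0.82% of all genes. The list's median effect was -1.37 in the heavy pool and -0.25 in the ribosome-free pool. All 7 fibroblast markers, 2 of which are collagen genes, were also below 0, with a median of -0.68, and their part in the collagen values was not tested. For the effect within 1 pool, fewer cells with these mRNAs and less of them per cell cannot be told apart in RNA from whole cultures.

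Col1a1 (chromosome 11, 94936224 to 94953042 in GRCm38) encodes the main chain of collagen I. In the heavy pool it stood at 806, 121 and 345 CPM with halofuginone and at 1745, 326 and 1674 CPM with vehicle, in the order untagged, tag 2 and tag 4, which holds for all values given by set. In the ribosome-free pool it stood at 274, 98.1 and 592 CPM with halofuginone and at 400, 143 and 651 CPM with vehicle. Within every set the halofuginone library was the lower one in both pools, by more in the heavy pool, while the ranges of the 2 treatments overlapped because the sets differ in level. The heavy-to-free ratio was 2.93, 1.23 and 0.584 with halofuginone, against 4.36, 2.27 and 2.57 with vehicle. The fitted value was -1.20 ± 0.31 (SE of the fit to 3 sets), with an edgeR unadjusted p of 0.00278 and an adjusted p of 0.772. This SE, like those of edgeR below, comes from the test statistic and does not measure the spread of the 3 values by set. Leaving out 1 set at a time gave -1.51 to -0.80.

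Its partner chain Col1a2 (chromosome 6, 4504814 to 4541544) had values of -0.44, -0.51 and -0.81 by set and -0.59 ± 0.23 in the fit. It was the more even of the pair across sets. Col3a1 (chromosome 1, 45311538 to 45349706) had -0.68, -0.57 and -2.62 by set and -1.30 ± 0.44 in the fit. Col6a1 (chromosome 10, 76708792 to 76726168), a chain of the beaded-filament collagen VI, had -0.39, -0.72 and -3.09 by set and -1.39 ± 0.47 in the fit. In tag 4 its heavy level was 72.2 CPM with halofuginone against 606 CPM with vehicle, while its ribosome-free levels were 699 and 684 CPM in the same order. Without tag 4 the fitted values were -0.73 for Col3a1 and -0.63 for Col6a1, so for both the size, not the sign, rested on that set.

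**Figure D2:**
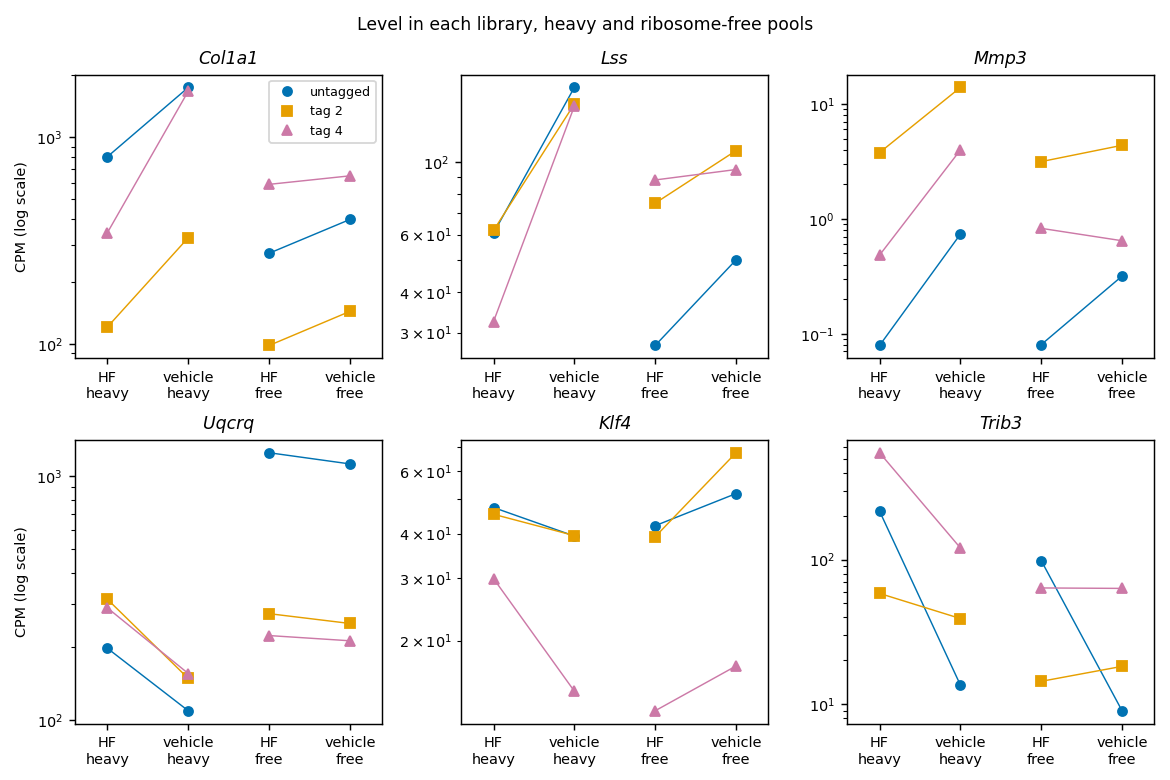
Level in CPM (log axis) of 6 genes in the 12 libraries, by group, with lines joining halofuginone (HF) and vehicle libraries of the same set. Col1a1, Lss and Mmp3 are lower with halofuginone in the heavy pool of every set, Uqcrq and Klf4 are higher there, and Trib3 differs between sets in level and in the ribosome-free pool.

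Other matrix genes lay on the same side. Of 35 tested matrix proteins other than collagens 28 were below 0, 16 of them in all 3 sets and 12 at an unadjusted p under 0.05, with a median of -0.60 (-0.34, -0.55 and -1.14 by set, and -0.50 without tag 4). Emilin1 (chromosome 5, 30913402 to 30921277), an elastic-fibre glycoprotein, stood in the heavy pool at 49.6, 36.9 and 30.005 CPM with halofuginone and at 89.1, 72.4 and 114 CPM with vehicle. Its ribosome-free levels were 12.05, 15.7 and 16.1 CPM with halofuginone and 14.6, 14.1 and 16.8 CPM with vehicle. The heavy levels of the 2 treatments did not overlap and the free levels did, and the fitted value was -1.18 ± 0.31. The laminin chains of the list were divided, with fitted values of -1.48 for Lama4, 0.00 for Lamc1 and 0.35 for Lamb1. Lamb2, a laminin beta chain outside the list, had -0.85, -0.96 and -0.60 by set and -0.82 ± 0.22 in the fit. The smallest p of the list belonged to Mfap4, but its halofuginone heavy libraries held 0, 0 and 0.107 CPM against 0, 0.0324 and 2.21 CPM in vehicle, and no fold is given for it.

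Fn1 (fibronectin, chromosome 1, 71585520 to 71653200) did not keep the side of the list. Its values by set were -0.24, -0.58 and 1.66, and the fit gave 0.26 ± 0.44, or -0.48 without tag 4. Acta2, the smooth muscle actin of contractile fibroblasts, was likewise uneven, with 0.47, 0.05 and -1.93 by set and -0.43 ± 0.57 in the fit, but 0.18 without tag 4 and 0.19 without tag blocks. Its heavy level differed between sets far more than between treatments, at 3843, 125 and 163 CPM with halofuginone and 2058, 97.1 and 562 CPM with vehicle.

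Genes that modify, crosslink or degrade matrix were also mostly below 0. Of 22 tested genes of collagen hydroxylation, folding, processing and crosslinking, 19 were below 0, 11 in all 3 sets and 6 at an unadjusted p under 0.05, with a median of -0.44 (-0.02, -0.56 and -0.45 by set). The lysyl oxidases Lox and Loxl3, which start collagen crosslinks, had fitted values of -1.41 ± 0.49 and -1.18 ± 0.33, and by set -0.76, -0.48 and -3.05 for Lox and -0.37, -1.04 and -2.13 for Loxl3. Without tag 4 the fit gave -0.70 for Lox and -0.77 for Loxl3. Of 15 matrix proteases and inhibitors 12 were below 0, 9 in all 3 sets and 7 at an unadjusted p under 0.05, with a median of -0.59 (-0.16, -0.53 and -0.54 by set). Mmp3 (stromelysin 1, chromosome 9, 7445822 to 7455975) stood in the heavy pool at 0.0790, 3.77 and 0.483 CPM with halofuginone and at 0.735, 13.9 and 3.98 CPM with vehicle. Every halofuginone library was below the vehicle library of its set, at levels of few counts in the untagged set. The fit gave -2.03 ± 0.62. Integrins, the receptors that bind this matrix, had 8 of 11 below 0, 0 at an unadjusted p under 0.05 and a median of -0.24, and TGF-beta and contractile genes had 20 of 24 below 0 and a median of -0.27. In the TGF-beta list the medians by set were -0.01, -0.10 and -0.71, with 12, 11 and 8 of 24 genes above 0, and it was -0.14 without tag 4 and -0.09 without tag blocks.

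Cholesterol synthesis genes had the lowest median of the 32 lists in the fit of all 12 libraries, but not without tag 4. In that smaller fit collagens, matrix proteins, integrins, collagen modification genes and, narrowly, matrix proteases were lower. All 24 tested of 25 were below 0 in the fit, 19 in all 3 sets and 13 at an unadjusted p under 0.05. The median was -1.10 in the fit, but it was -0.32 in the untagged set and -0.34 in tag 2 against -2.72 in tag 4, and -0.37 in the fit without tag 4. The sign thus held in each set and the size came from tag 4. By pool, the list's median effect in the untagged set was -1.15 in heavy and -0.84 in ribosome-free, in tag 2 -0.62 and -0.30, and in tag 4 -2.84 and -0.01. In the heavy pool edgeR called 5 of the 24 lower (Lss, Cyp51, Dhcr7, Hsd17b7 and Tm7sf2), beside 0.82% of all genes.

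Lss (chromosome 10, 76531588 to 76557138) had heavy levels of 60.6, 61.7 and 32.4 CPM with halofuginone and 170, 151 and 149 CPM with vehicle. Its ribosome-free levels were 27.4, 74.9 and 88.2 CPM with halofuginone and 50.1, 109 and 95.0 CPM with vehicle. The heavy levels did not overlap between treatments, and the free levels did, though each halofuginone library was below its vehicle partner. Its heavy-to-free ratio was 2.19, 0.826 and 0.371 with halofuginone, against 3.36, 1.39 and 1.56 with vehicle. The fitted value was -1.15 ± 0.29, with an unadjusted p of 0.0025 and an adjusted p of 0.772 in edgeR, and leaving out 1 set at a time gave -1.42 to -0.76. Srebf2, the transcription factor of the pathway, had -0.27, -0.64 and -1.42 by set (named after its values were seen). Fatty acid synthesis genes had 11 of 14 below 0 and a median of -0.32. Scd2, a desaturase, had the smallest p of them, with -0.44, -0.77 and -1.92 by set and -1.04 ± 0.31 in the fit, or -0.69 without tag 4.

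**Figure D3:**
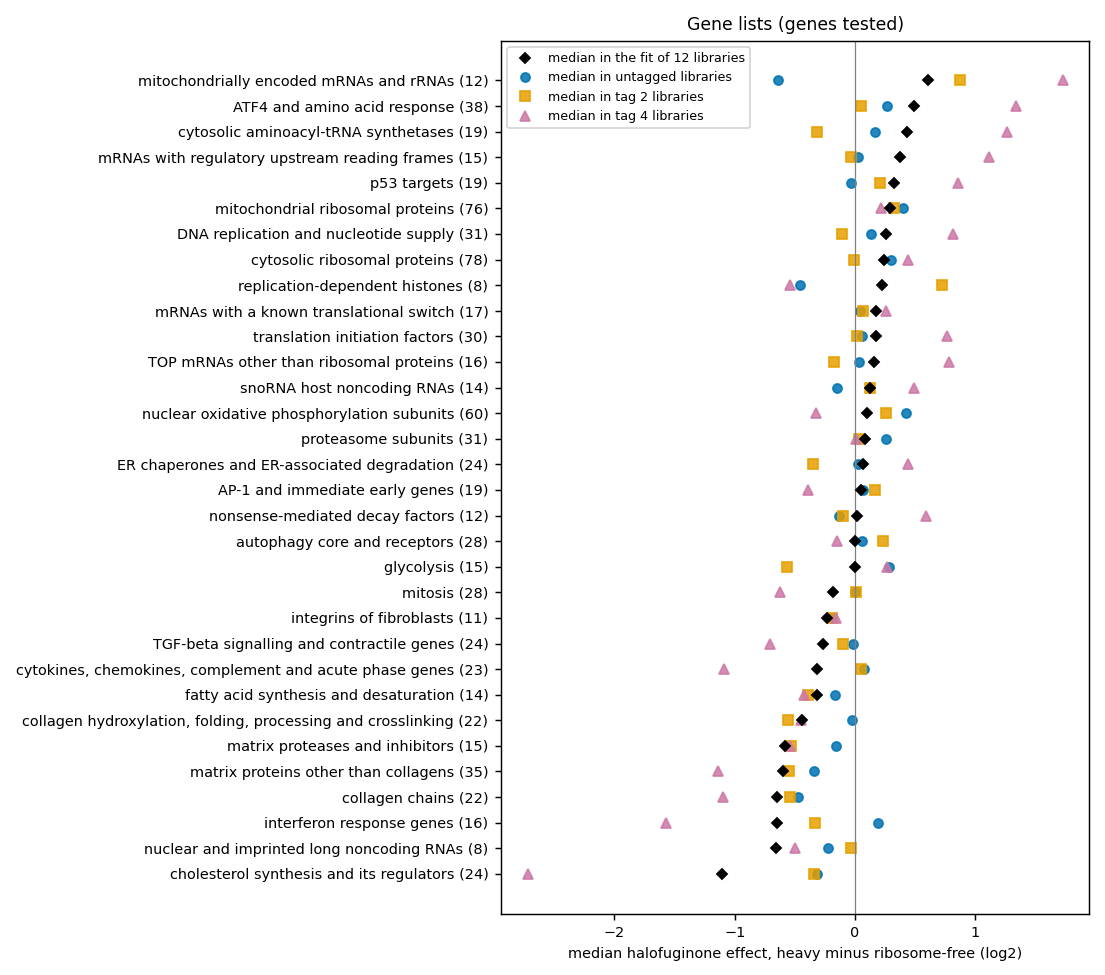
Median of the measure (log2) in each of 32 gene lists, with the number of genes tested in parentheses, in the fit of 12 libraries and in each set of 4 libraries. Collagens, matrix proteins, mitochondrial ribosomal proteins, the ATF4 response and cholesterol synthesis are among the lists on 1 side of 0 in all 3 sets. The ATF4 response and cholesterol lists reach their large values in tag 4, where collagens and matrix proteins are also farthest from 0.

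The ATF4 response lay above 0, with its size in tag 4. Of 38 tested genes of 39, 37 were above 0 in the fit, 18 in all 3 sets and 3 at an unadjusted p under 0.05. The median was 0.49 in the fit, 0.27 in the untagged set, 0.05 in tag 2 and 1.34 in tag 4, and it was 0.05 in the fit without tag 4, beside -0.06 for all genes in that fit. By pool, the list's median effect in the untagged set was 1.08 in heavy and 0.89 in ribosome-free, so by median their scaled level was higher with halofuginone in both pools. In tag 2 it was -0.05 in both pools, and in tag 4 it was 1.32 in heavy and 0.03 in ribosome-free. In the heavy pool edgeR called 3 of the 38 higher (Slc7a11, Aldh1l2 and Pycr1), beside 0.513% of all genes.

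Several promoters of the list carry the letters of the motif bound by Atf4 with C/EBP proteins. RefSeq promoter windows (250 bases before to 50 after the start, build GRCm38.p6) were searched on both strands for TGATGCAA, and 10 of the 33 listed genes with a window held it (30.3%), as did 4 of 13 tRNA synthetases (30.8%), 0 of 17 cholesterol genes and 0 of 20 collagens. Over all 27025 windows the share was 1.03%. Slc7a11, the cystine-glutamate exchanger, Chac1, a glutathione-degrading enzyme, and Pycr1, the last enzyme of proline synthesis, are shown with the motif in capitals, read along the gene's own strand.
Slc7a11, chr3:50443661-50443690, minus strand: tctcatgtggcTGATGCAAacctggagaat
Chac1, chr2:119351038-119351067, plus strand: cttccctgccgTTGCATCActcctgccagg
Pycr1, chr11:120643833-120643862, minus strand: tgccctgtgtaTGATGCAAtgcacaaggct
In Chac1 the motif stands on the opposite strand. A match describes letters in a window and shows no binding.

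Atf4 itself (chromosome 15, 80255184 to 80257541) stood at a higher CPM in the ribosome-free than in the heavy pool in each set and treatment. As each library was scaled separately, that does not say where most of the Atf4 mRNA lay. Its heavy level was 526, 356 and 1411 CPM with halofuginone and 229, 526 and 574 CPM with vehicle, and its ribosome-free level was 1770, 1712 and 2653 CPM with halofuginone and 1504, 2317 and 2597 CPM with vehicle. The heavy-to-free ratio was 0.298, 0.208 and 0.532 with halofuginone, against 0.152, 0.227 and 0.221 with vehicle, so it was the higher one with halofuginone in the untagged set and in tag 4 and the lower one in tag 2. The fitted value was 0.72 ± 0.45 (edgeR unadjusted p 0.141, adjusted 0.775), or 0.35 without tag 4. Atf5, another upstream-frame factor of the response, had 0.56, 0.06 and 1.58 by set and 0.74 ± 0.36 in the fit, or 0.23 without tag 4. Over the 15 tested mRNAs with regulatory upstream reading frames, 13 were above 0, 3 in all 3 sets and 0 at an unadjusted p under 0.05. Their median was 0.38 in the fit, with 0.02, -0.03 and 1.11 by set, and it turned to -0.05 without tag 4.

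Trib3 (chromosome 2, 152337422 to 152344032), a pseudokinase among the known targets of Atf4, stood in the heavy pool at 217, 58.3 and 550 CPM with halofuginone and at 13.5, 39.1 and 120 CPM with vehicle. Its ribosome-free level was 98.4, 14.3 and 63.6 CPM with halofuginone and 8.97, 18.2 and 63.2 CPM with vehicle. The heavy level was higher with halofuginone in each set. The ribosome-free level was higher with it in the untagged set, lower in tag 2 and nearly equal in tag 4. By set its values were 0.57, 0.91 and 2.18, and the fit gave 1.29 ± 1.06, or 0.50 without tag 4. Ddit3, a stress transcription factor, had 0.25, 0.08 and 2.10 by set, and Ppp1r15a, the eIF2 phosphatase subunit, had 0.34, -0.03 and 2.75. Asns, asparagine synthetase, had 0.32, -0.03 and 1.16. Without tag 4 the fitted values were 0.08 for Ddit3, 0.06 for Ppp1r15a and 0.05 for Asns, against 0.85, 1.04 and 0.49 with it.

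Eif4ebp1 (chromosome 8, 27260329 to 27276674), the inhibitor of cap-binding factor eIF4E, had the smallest p of the ATF4 list, with values by set of 0.48, 0.79 and 1.04. Its heavy level was 206, 139 and 260 CPM with halofuginone and 97.1, 109 and 115 CPM with vehicle, with no overlap. The fit gave 0.77 ± 0.32 (edgeR unadjusted p 0.0344, adjusted 0.772). Slc7a11 had 0.73, -0.87 and 3.55 by set, a fitted value of 0.85 ± 0.94 and -1.01 without tag 4. Pycr1, named here because its promoter is shown, had 0.89, 0.29 and 1.33 and a fitted value of 0.82 ± 0.35.

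The tRNA synthetases depended on the same set. Of 19 tested genes 18 were above 0 in the fit, but 17 in the untagged set, 3 in tag 2 and 18 in tag 4, and 0 reached an unadjusted p under 0.05. Their median was 0.43 in the fit, 0.17, -0.32 and 1.27 by set, and -0.19 without tag 4. Eprs (chromosome 1, 185363044 to 185428360), the target of the drug, stood in the heavy pool at 178, 63.6 and 333 CPM with halofuginone and at 95.9, 53.4 and 99.96 CPM with vehicle. Its ribosome-free level was 48.2, 41.4 and 47.5 CPM with halofuginone and 26.1, 29.4 and 48.7 CPM with vehicle. In the untagged set and in tag 2 both pools were higher with halofuginone, and in tag 4 the heavy pool alone. The values by set were 0.01, -0.24 and 1.76. The fit gave 0.51 ± 0.37, and -0.20 without tag 4. Rars, the arginine enzyme, had the smallest p of the list, with 0.33, 0.05 and 1.82 by set. Car6, a secreted carbonic anhydrase, was the most divided of the 20 fixed genes, at -2.38, -1.57 and 5.86 by set, 1.49 ± 1.82 in the fit and -1.61 without tag 4. Its heavy level was higher with halofuginone in every set, at 33.0, 15.8 and 121 CPM against 0.385, 0.227 and 1.42 CPM with vehicle. The sets parted in the ribosome-free pool, at 363, 74.5 and 10.5 CPM with halofuginone against 1.35, 0.624 and 9.56 CPM with vehicle. Its vehicle levels rest on few counts in most libraries.

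Mitochondrial ribosomal proteins were the most even across sets of the 3 lists with 60 or more genes. Of 76 tested genes 69 were above 0, 42 of them in all 3 sets against 16.1% of all genes, and 15 at an unadjusted p under 0.05. The median was 0.29, with 0.40, 0.33 and 0.21 by set, and 0.26 to 0.36 over the 11 alternatives. The median effect was 0.28 in the heavy pool and 0.00 in the ribosome-free pool. Mrpl1 (chromosome 5, 96209493 to 96266727), of the large subunit, stood in the heavy pool at 21.01, 24.5 and 53.9 CPM with halofuginone and at 12.1, 17.2 and 25.7 CPM with vehicle. Each halofuginone library was above its vehicle partner, though the ranges overlapped. The fit gave 0.81 ± 0.26. Chchd1, a small mitochondrial ribosomal protein outside the list, had 0.84, 1.21 and 0.71 by set and 0.94 ± 0.21 in the fit.

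Cytosolic ribosomal proteins and other mRNAs of the translation machinery were above 0 in the fit and varied more between sets. Of 78 tested ribosomal protein genes 71 were above 0, 26 in all 3 sets and 2 at an unadjusted p under 0.05, with a median of 0.24 (0.30, -0.01 and 0.44 by set, and 0.07 without tag 4). Their median effect was 0.49 in the heavy pool and 0.26 in the ribosome-free pool, so by median their scaled level was higher with halofuginone in both pools. Rps14 had 0.22, 0.01 and 0.91 by set, and Rpl29, with the smallest p of the list, 0.55, 0.85 and 0.64. Many of these genes have processed pseudogenes, so their counts are less certain. Translation factors and other mRNAs with a 5′ terminal oligopyrimidine tract, the element through which mTOR controls them, had a median of 0.16 (0.03, -0.18 and 0.78 by set) and of -0.20 without tag 4. Eef2, the elongation factor that moves the ribosome along, had -0.12, -0.46 and 0.18 by set, -0.13 ± 0.22 in the fit and 0.03 without tag 2. Initiation factors had a median of 0.18 (0.06, 0.01 and 0.77 by set), and of -0.01 without tag 4.

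Nuclear genes of oxidative phosphorylation were split by set. Of 60 tested genes 58 were above 0 in the untagged set, 42 in tag 2 and 12 in tag 4, and the median was 0.42, 0.26 and -0.33 by set and 0.10 in the fit. A few members were above 0 in each set. Uqcrq (chromosome 11, 53427922 to 53430831) stood in the heavy pool at 197, 313 and 288 CPM with halofuginone and at 109, 148 and 155 CPM with vehicle, with no overlap. Its ribosome-free level was 1244, 273 and 222 CPM with halofuginone and 1120, 249 and 212 CPM with vehicle, nearly equal within each set. Its values by set were 0.69, 0.94 and 0.82, and the fit gave 0.82 ± 0.20 with an unadjusted p of 0.00204 and an adjusted p of 0.772 in edgeR. Ndufa7 of complex I had 1.03, 0.80 and 0.61. Mitochondrially encoded RNAs, which are not translated by the ribosomes of the gradient and make up much of the ribosome-free pool, had -0.64, 0.87 and 1.73 by set, and a median of 0.61 in the fit and 0.00 without tag 4.

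mRNAs whose translation is known to be switched on and off were listed separately. Fth1, the ferritin heavy chain held off ribosomes by iron regulatory proteins, had a heavy-to-free ratio of 0.0309, 0.0407 and 0.103 with halofuginone, against 0.0263, 0.0376 and 0.0730 with vehicle. Its values by set were 0.23, 0.11 and 0.50, and the fit gave 0.28 ± 0.23. Gpx4, a selenoprotein that guards lipids from peroxidation, had 1.06, 0.81 and 0.17, and 0.68 ± 0.24 in the fit. Odc1, the polyamine enzyme, had -0.33, 0.42 and 1.03, with 0.35 ± 0.35 in the fit and -0.08 without tag 4. The list of 17 had 12 genes above 0 and a median of 0.18, beside 55.3% above 0 and a median of 0.05 for all genes.

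Avil, encoding the actin-binding protein advillin, had the smallest p of all genes. Avil (chromosome 10, 127000709 to 127020994) was at 17.1, 4.70 and 34.5 CPM in the heavy pool with halofuginone and at 0.280, 0.0972 and 0.909 CPM with vehicle. In the ribosome-free pool it was at 6.34, 8.16 and 3.62 CPM with halofuginone and at 1.35, 2.62 and 3.01 CPM with vehicle. Every halofuginone library was above every vehicle library in both pools, and by far more in the heavy one. The values by set were 2.61, 1.65 and 4.41 on log2(CPM + 0.5), and the fit gave 4.14 ± 0.54. The vehicle heavy libraries held few counts of Avil, so the size of this fold is uncertain. edgeR gave an adjusted p of 0.177, and 0.0481 without tag 4. DESeq2 gave a log2 difference of 4.15 ± 0.61 with an adjusted p of 1.25e-07, and over the 11 alternatives the adjusted p ran from 5.42e-15 to 1.

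**Figure D4:**
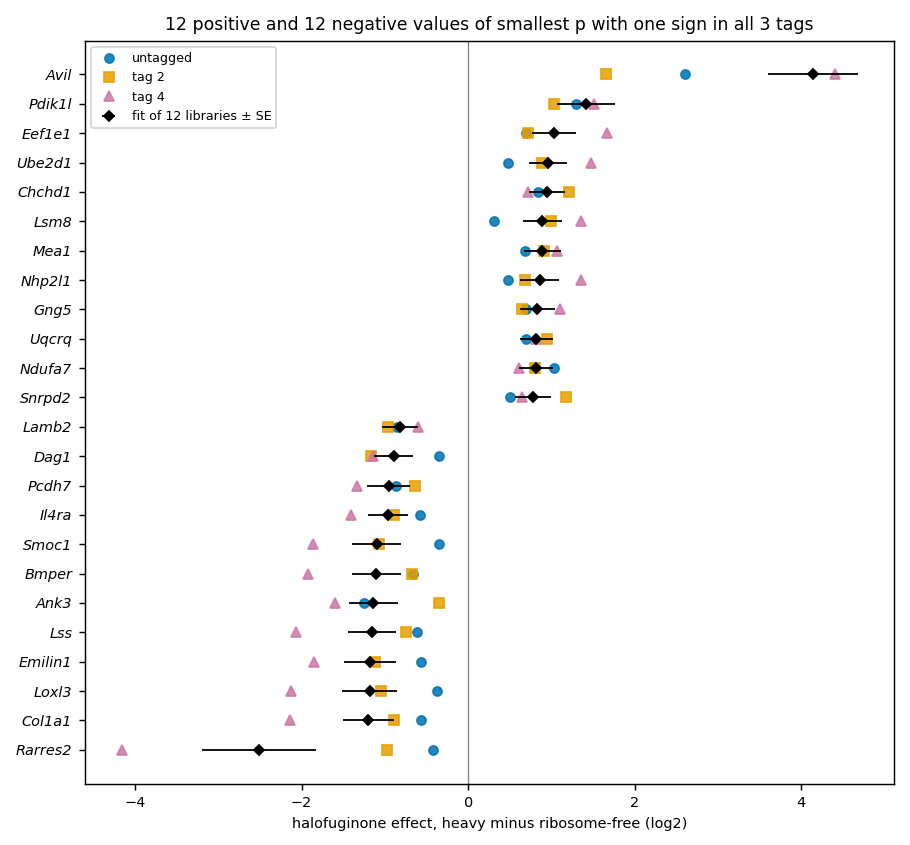
Measure (log2) of the 12 genes above 0 and the 12 below 0 that have the smallest unadjusted p among genes of 1 sign in all 3 sets, as the fit with its SE and as the value of each set. Avil lies farthest to the right at 4.14 and Rarres2 farthest to the left at -2.51, and the other genes have fitted values within about 1.5 of 0.

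The 12 genes above 0 with the smallest p and 1 sign in all 3 sets had unadjusted p from 1.35e-05 to 0.00425. After Avil they were Chchd1, the ubiquitin-conjugating enzyme Ube2d1, Uqcrq, the kinase-like Pdik1l, Mea1, Ndufa7, Gng5, the multi-synthetase complex scaffold Eef1e1, and the spliceosome proteins Lsm8, Nhp2l1 and Snrpd2, with values of 0.78 to 1.42. Gng5 (chromosome 3, 146499807 to 146505572), whose coding sequence is printed above, stood in the heavy pool at 32.5, 34.0 and 48.5 CPM with halofuginone and at 17.8, 21.4 and 25.3 CPM with vehicle. These levels did not overlap. Of the 11 with a protein in the annotation 9 were in the shortest quintile of tested genes by protein length and 0 in the longest, with a median of 118 residues. That sign and p were what chose them, so these counts are a description.

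The 12 genes below 0 chosen the same way had unadjusted p from 0.0025 to 0.00496. They were Lss, Emilin1, Lamb2, Loxl3 and Col1a1, described above, the interleukin 4 receptor chain Il4ra, the membrane-skeleton linker Ank3 (ankyrin G), the laminin receptor Dag1 (dystroglycan), the matricellular protein Smoc1, the BMP-binding protein Bmper, the protocadherin Pcdh7 and the secreted chemerin precursor Rarres2, whose value of -2.51 was -1.10 without tag 4. In the untagged set the Rarres2 levels were 0.276 to 1.03 CPM, so its value there rests on few counts. Dag1 (chromosome 9, 108204634 to 108263958) stood in the heavy pool at 116, 65.5 and 76.2 CPM with halofuginone and at 195, 120 and 143 CPM with vehicle. In the ribosome-free pool it stood at 44.1, 122 and 136 CPM with halofuginone and at 58.2, 99.2 and 116 CPM with vehicle. The heavy levels with halofuginone were all below those with vehicle, and the free levels were lower with halofuginone in the untagged set alone. The fit gave -0.89 ± 0.24. Of these 12 genes 6 were in the longest quintile by protein length and 1 in the shortest, with a median of 851.5 residues.

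Across all genes, protein length went with the measure in 2 of the 3 sets. Over 11342 tested genes with a protein, Spearman's rho with protein length was -0.31 in the untagged set, -0.40 in tag 2 and 0.14 in tag 4, and -0.16 in the fit. The shortest quintile, with a median of 181 residues, had a median of 0.18 in the untagged set, 0.31 in tag 2 and -0.01 in tag 4. The longest quintile, with a median of 1167 residues, had -0.17, -0.26 and 0.33. Tag 4 thus ran against the other sets. GC content of the transcript was split differently, with rho of 0.18 in the untagged set, -0.21 in tag 2 and -0.27 in tag 4. In the fit its rho was -0.24, the farthest from 0 of the sequence features examined. The fitted median went from 0.21 in the quintile with the least GC to -0.08 in that with the most. These correlations are across genes of the same libraries and are given as descriptions.

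Proline content was only weakly related to the measure, with or without the collagens. Spearman's rho with the share of proline was -0.10 in the fit, with -0.01, -0.09 and -0.08 by set, and -0.10 without the collagens. The quintile of genes with the least proline (median 3.15%) had a median of 0.12, and the quintile with the most (median 9.46%) 0.01. Within the longest quintile of proteins rho was -0.16. Other residues reached as far, such as lysine with a rho of 0.21, leucine with -0.12 and glutamate, the other substrate of Eprs, with 0.12. The collagens had a median share of proline of 15.8% and lay below 0 in the fit. The quintile with the most proline, which includes collagens, was less rich in it, so it does not match them. The part of proline in the collagen values was not tested.

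**Figure D5:**
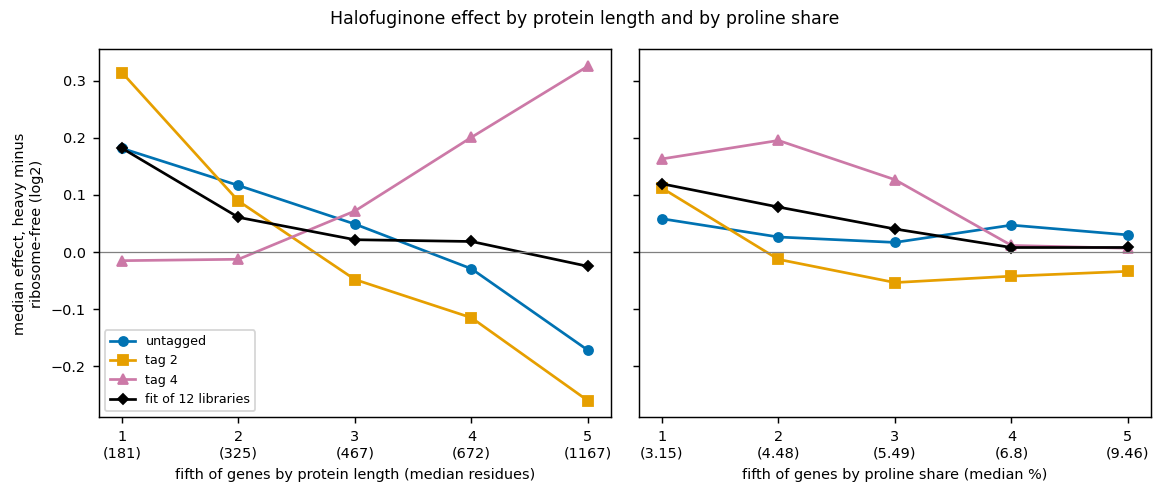
Median of the measure (log2) in quintiles of 11342 genes by protein length, left, and by proline share, right, in the fit and in each set. By length the untagged set and tag 2 decline from left to right and tag 4 reaches 0.33, while by proline share no set moves by more than about 0.2.

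Cell cycle and stress lists were mixed. DNA replication genes had 29 of 31 above 0 and a median of 0.26, with 0.13, -0.11 and 0.82 by set and -0.11 without tag 4, and Rfc3, a clamp loader subunit, had 0.74, 0.34 and 0.79. Mitosis genes had 22 of 28 below 0 and a median of -0.19, with 0.00, 0.01 and -0.63 by set. Interferon response genes had 15 of 16 below 0 in the fit and a median of -0.65, but 0.19 in the untagged set, -0.34 in tag 2 and -1.57 in tag 4. Targets of p53 had 15 of 19 above 0 and a median of 0.33, or 0.00 without tag 4. Among AP-1 and other immediate early genes the median was 0.05, and Klf4, a zinc-finger transcription factor, stood out. Klf4 (chromosome 4, 55527143 to 55532466) was at 47.3, 45.3 and 29.9 CPM in the heavy pool with halofuginone and at 39.4, 39.5 and 14.4 CPM with vehicle. In the ribosome-free pool it was at 42.1, 39.2 and 12.7 CPM with halofuginone and at 51.8, 67.5 and 17.0 CPM with vehicle. In each set it was thus higher in heavy and lower in ribosome-free with halofuginone, and the fit gave 1.00 ± 0.28.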

How the data were processed

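The authors deposited raw counts per gene symbol for 24 libraries, 12 of which were used here. The submitters' processing notes name build GRCm38.p5, featureCounts from Subread 1.5.0p3, STAR 2.5.2b and Trimmomatic 0.36. Per the labels' protocols the kit was stranded and selects polyadenylated RNA. How strand and multi-mapping reads were handled is not given in the sources used here, so overlapping genes, paralogs and genes with pseudogenes are less certain. Each pool was scaled to its own total, so values compare shares of a pool. Columns were matched to groups by treatment and fraction numbers, not to single samples. Columns of no sample numbered 0.

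The test was edgeR 4.0.16 (quasi-likelihood, R 4.3.3) on the 12 libraries, with TMM scaling, filterByExpr by group, Benjamini-Hochberg adjustment at 0.05, a level for each tag and pool and a treatment effect in each pool, leaving 4 residual degrees of freedom. The test moderates the spread of each gene with that of the other genes, and the SE given for edgeR was derived from its test statistic. Values by set are differences of log2(CPM + 0.5). DESeq2 1.42.0 was an alternative. The scripts were tested on simulated data. Same-tag libraries deviated together from their group means: across genes r was 0.356 to 0.761 between treatments in heavy pools, 0.764 to 0.893 in free pools, and 0.216 to 0.476 between pools of a treatment, against at most 0.239 for different tags. The design calls the triplicates biological, but no label ties a tag to a culture. The p-values therefore reflect only how these libraries spread, which may be technical. Replicates of a group differed far beyond sampling noise (mean chi-square per gene 67.9 to 418, where 1 is expected for one library).

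Named genes were 20 fixed genes, the 12 of smallest p in each direction with 1 sign in all 3 tags and 5 CPM or more on average in any group, since none was called, leaving out predicted genes and pseudogenes, and the member of smallest p of each of 32 lists. Genes named for a call in the heavy pool, and Chac1, Pycr1 and Srebf2, were chosen after their values were seen. The members and lists were chosen with earlier results of these data known. Coordinates and coding sequences are from GENCODE M21 (GRCm38), for genes matched by symbol (Nhp2l1 was not matched), and promoters from RefSeq.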

Additional observations from a re-analysis of the deposited data

Results flagged for a closer look

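Of the 70 named genes, 6 had effects of opposite sign in the heavy and ribosome-free pools in each of the 3 sets, as did 345 of the 13053 tested genes (2.64%). Many of the named genes were chosen for a small p of the difference between pools, which favours opposite signs. Their count is therefore not comparable with the share of all genes. Higher in heavy and lower in ribosome-free with halofuginone in every set were Chchd1, with a fitted difference of 0.94, Ube2d1, with 0.96, Pdik1l, with 1.42, Eef1e1, with 1.03, and Klf4, with 1.00. Lamb2 was lower in heavy and higher in ribosome-free in every set, with a fitted difference of -0.82. The difference between pools was tested in edgeR for each, and none passed at an adjusted p under 0.05 (0.772 for all 6, with unadjusted p from 0.00126 for Chchd1 to 0.00471 for Klf4).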

How the results depend on the processing

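The number of genes called was 0 in the main edgeR test, 1 with DESeq2 (Avil), and 163 (27 higher, 136 lower) with no filter on low counts, which admits 24908 genes. Without the filter 20 of the 70 named genes were called, Avil, Ppp1r15a, Trib3, Pdik1l, Eef1e1, mt-Co1 and Gadd45a higher and Col1a1 (adjusted p 0.00257), Col3a1, Col6a1, Lox (0.00011), Lss (0.00725), Ank3, Emilin1, Smoc1, Bmper, Rarres2, Loxl3, Scd2 and C3 lower, with log2 differences close to those of the main test. As many of the 70 were named for a small p of this measure, the share called among them is raised by that choice. Leaving out 1 set at a time gave 0 to 1 calls: 1 without tag 4 (Avil, adjusted p 0.0481), 0 without tag 2 and 1 without the untagged set (Smt3h2-ps, adjusted p 0.0224, named after its value was seen). It was 0 without the replicate block, with an additive or a full replicate block, with median-of-ratios factors, with mitochondrially encoded genes left out and with a stricter filter. Without the replicate block 21 genes above 0 and 32 below 0 had an unadjusted p under 0.05, against 395 and 368 with it. Of those genes 51.8% were above 0, against 31.2% without tag 4, 39.6% without the block, 35.0% with the additive block and 42.0% without tag 2. Leaving out 1 set at a time turned the sign of Eprs (-0.20 to 0.89), Slc7a11 (-1.01 to 1.88), Fn1 (-0.48 to 0.71), Acta2 (-0.935 to 0.18), Odc1 (-0.078 to 0.73), Car6 (-1.61 to 3.53) and Gas5 (-0.079 to 0.66), each without tag 4, and of Eef2 (-0.37 to 0.028) without tag 2. Without the replicate block Acta2 turned to 0.19. The cause was not tested. The other named genes kept their sign under every alternative that could be run for them. The p-values of single genes are limited by 4 residual degrees of freedom. They also lean on a spread that edgeR moderates across genes, and not on each gene's own libraries alone. mRNAs under about 1 CPM, such as Mfap4, Avil in the vehicle heavy pool, and on average Slc7a11 in the vehicle ribosome-free pool, are also limited by their counts.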

Other observations

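Some lists not described in the report held values near 0 or without a common side. Autophagy genes had a median of 0.00 with 14 of 28 above 0, proteasome subunits 0.08 with 27 of 31 above 0, and glycolysis genes 0.00 with 6 of 15 above 0. Chaperones and degradation factors of the endoplasmic reticulum had a median of 0.07 and of -0.22 without tag 4. The smallest p of that list belonged to Calr, the calcium-binding chaperone calreticulin, whose heavy level was 850, 542 and 1391 CPM with halofuginone and 2452, 1539 and 1970 CPM with vehicle. Its ribosome-free level was 595, 587 and 871 CPM with halofuginone and 1448, 800 and 819 CPM with vehicle, so that both pools were lower with halofuginone in the untagged set and in tag 2. Its values by set were -0.24, -1.06 and -0.59.

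Among cytokine, complement and acute phase genes the median was -0.32 with 18 of 23 below 0 in the fit, but 0.07, 0.05 and -1.09 by set, with 13, 12 and 7 of 23 above 0, and -0.03 without tag 4. The complement component C3 had the smallest p of that list, with a heavy level of 73.4, 70.2 and 51.5 CPM with halofuginone and 153, 160 and 357 CPM with vehicle, and a ribosome-free level of 24.2, 32.4 and 77.1 CPM with halofuginone and 32.0, 41.9 and 70.8 CPM with vehicle. Its heavy levels did not overlap between treatments, and its values by set were -0.66, -0.81 and -2.90. The fit gave -1.45 ± 0.42, or -0.81 without tag 4. Gas5, a noncoding host of snoRNAs, was at 81.1, 96.3 and 192 CPM in heavy with halofuginone and at 53.9, 65.3 and 80.1 CPM with vehicle, and had values by set of -0.16, 0.14 and 1.17.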
